A study of Mus musculus with 8 samples.

Results

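The 9 genes described here were Socs1, Socs2, Socs3, Cish, Pim1, Pim2, Stat3, Stat5a and Stat5b, taken by symbol from the 32285 features counted in every library. They were followed in pancreatic T cells of NOD mice, which become diabetic through autoimmunity without any induction. Each of the 8 libraries was a droplet single-cell RNA library of sorted CD45+ CD3+ TCR-beta+ cells, counted as unique molecular identifiers (UMIs). The protocol in the labels also names kit isolation of RNA from the frozen sorted cells and does not say how whole cells were kept for the droplets. The labels call all mice spontaneous new onset diabetic female NOD, of 3 to 4 months in one label and 3 to 5 months in another. The active library came from mice above 600 mg/dl blood glucose and the onset library from mice at 250 mg/dl, both untreated and harvested on day 1. The other 6 libraries came from mice at 200 to 300 mg/dl that were dosed daily and harvested on day 2, 3 or 4, with 1 vehicle and 1 PPCA library on each day. The design text counts 1, 2 and 3 days of therapy, which is read here as harvest on the day after the last dose. PPCA combined Nutlin-3 at 50 mg/kg, which blocks MDM2 and so raises p53, with MK-1775 at 25 mg/kg, which inhibits the cell cycle kinase Wee1. The vehicle was a mix of ethanol, Tween and polyethylene glycol. The labels do not say how many mice went into a library, so the tests measure the spread between libraries. Harvest day rises together with the number of doses, and these cannot be told apart.

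Cytokines such as interleukin-2, interleukin-7, interleukin-6 and the interferons act on T cells through receptors that carry JAK kinases, which phosphorylate STAT proteins so that they enter the nucleus. STAT5A and STAT5B serve mainly the receptors that share the common gamma chain, and STAT3 serves receptors of the interleukin-6 family as well as those for interleukin-10 and interleukin-21. The genes these STATs switch on include their own brakes: SOCS1 and SOCS3 bind and inhibit JAK kinases, and CISH and SOCS2 bind phosphorylated sites on receptors or their partners. The same signals induce PIM1 and PIM2, serine/threonine kinases that promote survival and growth.

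The short sequence to which activated STAT5 and STAT3 bind is the palindrome TTCNNNGAA, which reads the same on both strands. It was searched for in RefSeq promoter windows (build GRCm38.p6; 250 bases before to 50 bases after a transcript start), where 8 of the 9 genes had an entry; Socs2 had none. For Stat5b, Stat5a, Stat3 and Socs3 the starts in that table are not the outermost end of the annotated gene. The bases upstream of that end were searched in part for Stat3 and not for Stat5b, Stat5a and Socs3. Among their 11 windows, 2 held the motif, those of Cish and Socs3, compared with 8.30% of the 32851 windows of all genes. The Cish window held 2 copies, which 0.457% of all windows matched or exceeded, and the first of them began at the annotated first base of the transcript. The Socs3 copy began 154 bases before the start used for its window, at a place inside the annotated span of the gene (chromosome 11, 117966079 to 117970336). Both stretches are shown because Cish and Socs3 are the genes whose windows, of those searched, carry the letters, with the fixed letters of each motif in capitals. A match is a description of the sequence, and the letters were not searched outside these windows.
Cish, chr9:107296654-107296683, plus strand: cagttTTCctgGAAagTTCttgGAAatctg
Socs3, chr11:117969502-117969531, minus strand: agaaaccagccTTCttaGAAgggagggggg

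After filtering, 70509 T cells remained, 6187 to 11541 per library, with a median of 3851 to 6456 UMIs per cell. Cells with a Cd4 UMI and no Cd8a or Cd8b1 UMI are called CD4-gated (2650 to 4770 per library), those with the reverse are called CD8-gated (1627 to 4466), and T cells with a Foxp3 UMI are called Foxp3-positive (212 to 484). T cells with neither kind of UMI, or with both, lay in neither gate and made up 21.7 to 35.1% of T cells per library. UMIs were summed per library and population and are given as CPM, scaled to 1000000 UMIs of that population. In 4 libraries (vehicle day 2, vehicle day 3, PPCA day 3 and PPCA day 4) Y-linked transcripts summed to 186 to 273 CPM and Xist, the transcript of the silenced X, was at 0.33 to 0.75 CPM. The other 4 libraries had Xist at 416 to 612 CPM and Y-linked transcripts at 0.07 to 0.19 CPM, so the label female does not hold for all libraries. The 4 libraries with Y-linked transcripts cross the arms and days, and whether any library carries another library's label cannot be told from these data: arms and days below are those of the labels. Results were also computed with this split. The day 4 pair stood apart as well. Early response genes that tissue dissociation is known to induce summed to 4210 and 6584 CPM of all T cells on day 4 against 972 to 2374 CPM in the other 6 libraries. Pairs of libraries shared 14 to 41 cell barcodes, at most 0.431% of the smaller one.

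**Figure D1:**
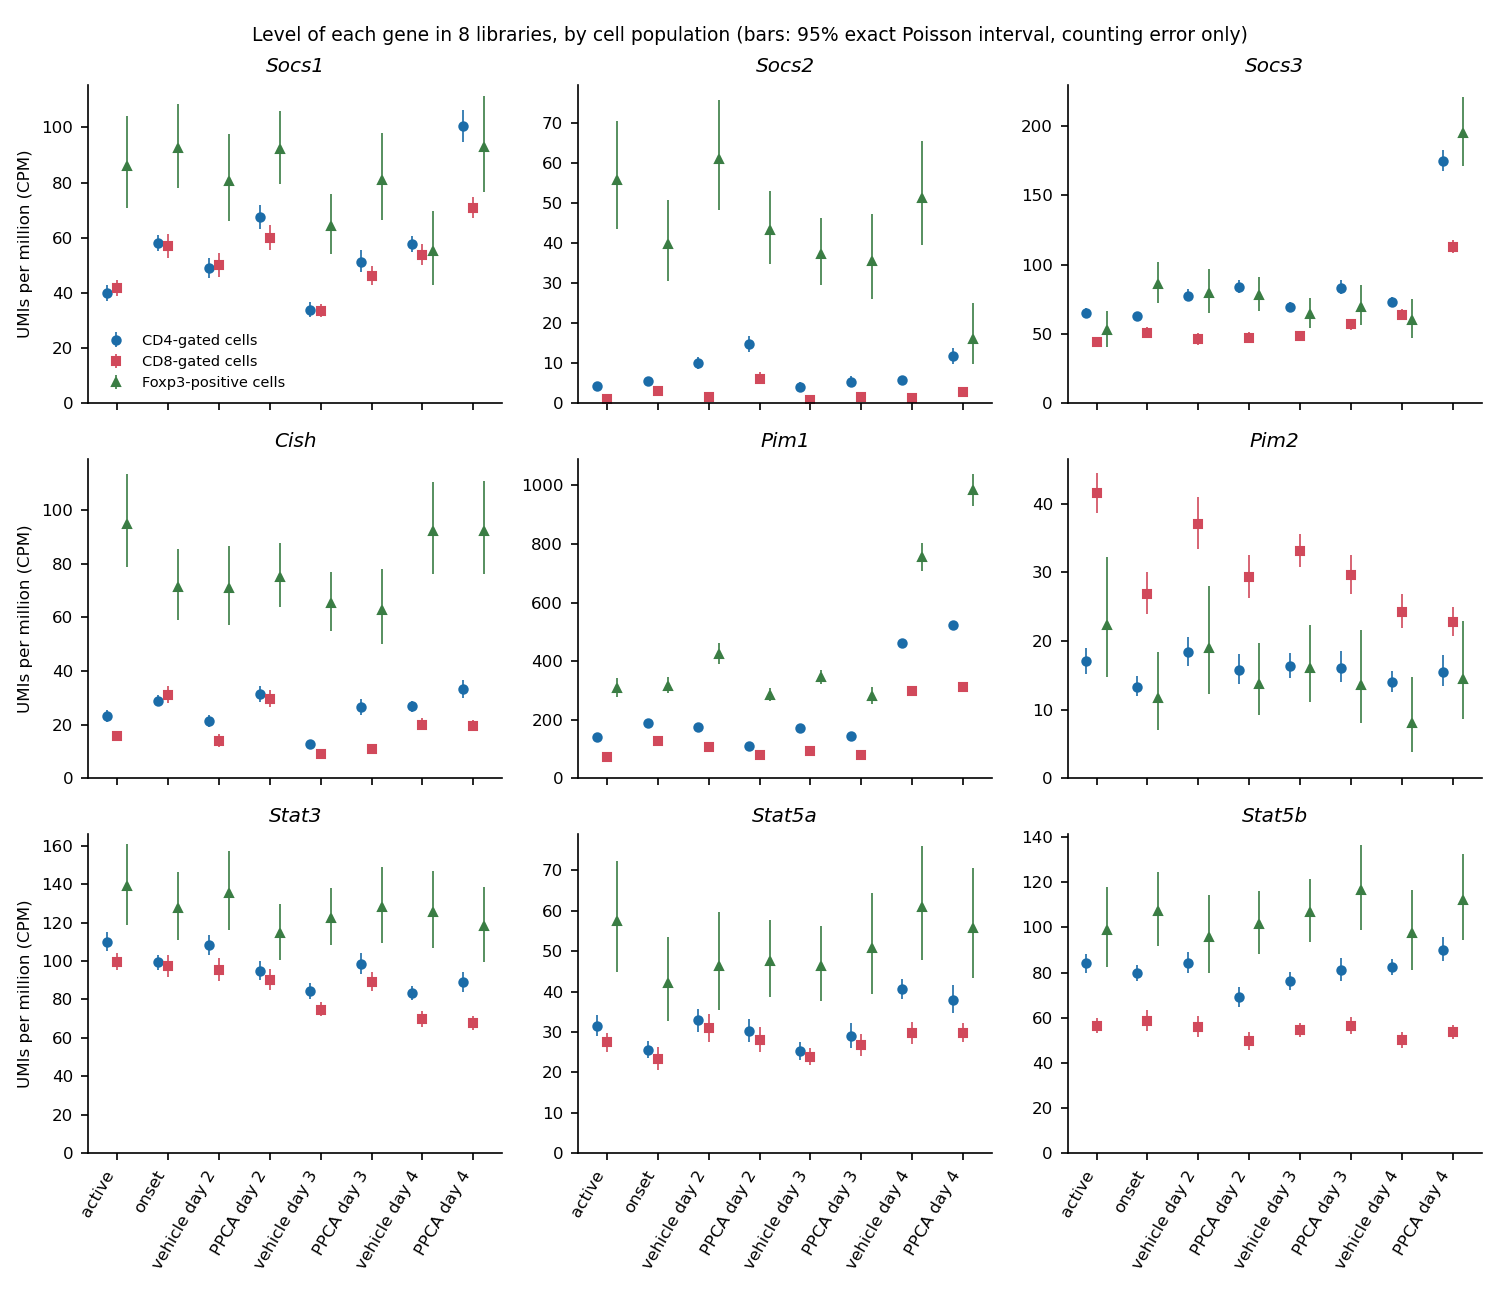
Level of each gene (CPM, y axis) in 8 libraries (x axis) in CD4-gated (circles), CD8-gated (squares) and Foxp3-positive cells (triangles); bars are 95% exact Poisson intervals and cover counting error only. Socs2 and Cish are highest in Foxp3-positive cells in every library, Pim2 is highest in CD8-gated cells, and Pim1 is high in all populations of the day 4 pair.

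CD4-gated and CD8-gated cells of the same library differed in most of these genes, and mostly in one direction. With edgeR's quasi-likelihood test on the summed counts, blocked by library, 7 of the 9 genes were lower in CD8-gated cells, 1 was higher and 1 did not pass a Benjamini-Hochberg adjusted p of 0.05. This contrast is broad, since it called 46.1% of the 11576 genes tested, 22.8% lower and 23.3% higher in CD8-gated cells. The median log2 difference was -0.43 over the 9 genes. Scaled to UMI totals without edgeR's composition correction, the same contrast called 2020 genes higher and 3439 lower in place of 2701 and 2640, and none of the 9 genes changed direction. Markers of B cells differed too: 3 B-cell genes, of which Cd79b alone had enough UMIs to be tested, summed to 9.45 to 18 CPM in CD8-gated and 1.74 to 2.72 CPM in CD4-gated cells. Early response genes were lower in CD8-gated cells (8 of 9 called, median -0.52), as were 5 of 5 regulatory T-cell markers (median -1.38) and 3 of 5 stress genes from a list chosen on these data (median -0.34). Trdc, the gamma delta T-cell marker (-0.55), and Pecam1, the one stroma marker tested (-0.84), were called lower. The part of these lists in the result was not tested.

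Pim2, the kinase gene on the X chromosome, ran against the rest. It stood at 41.5 CPM in CD8-gated cells of the active library, 26.8 at onset, 37.1, 33.2 and 24.2 with vehicle on days 2, 3 and 4, and 29.3, 29.6 and 22.8 with PPCA on these days. In CD4-gated cells the same libraries gave 17.1, 13.3, 18.4, 16.4, 14.1, 15.8, 16.1 and 15.6 CPM. Every CD8-gated value lay above every CD4-gated value, and the log2 difference was 0.99 ± 0.06 (SE, n = 8 libraries, edgeR adjusted p = 3.09e-09). The CD8-gated levels ranged more widely, with the 3 lowest of them at onset and on day 4. Libraries with Xist and libraries with Y-linked transcripts overlapped, at 24.2 to 41.5 and 22.8 to 37.1 CPM.

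Pim1, which encodes the other kinase of the family followed here, was lower in CD8-gated cells of 8 of 8 libraries, at a median of 99.5 CPM (lowest 74.5, highest 312) against 174 CPM (111 to 523) in CD4-gated cells. The 2 ranges overlapped with day 4 high in both, but within each library the log2 ratio lay between -0.93 and -0.46. The edgeR difference was -0.68 ± 0.04 (SE, adjusted p = 1.61e-09).

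Socs2, which restrains growth hormone and other cytokine receptors, had the largest difference among the 9 genes. CD8-gated cells gave 17 to 73 Socs2 UMIs per library, at 1.11 CPM in active, 3.00 at onset, 1.69, 0.803 and 1.41 with vehicle and 6.17, 1.55 and 2.76 with PPCA on days 2, 3 and 4. CD4-gated cells gave 4.38, 5.51, 9.97, 4.22, 5.86, 14.8, 5.45 and 11.7 CPM in the same order. CD8-gated cells were lower in 8 of 8 libraries (edgeR log2 difference -1.77 ± 0.15, SE, adjusted p = 1.24e-07), although the PPCA day 2 value of CD8-gated cells exceeded several CD4-gated values of other libraries.

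Socs3, the brake on interleukin-6 family receptors, was lower in CD8-gated cells of 8 of 8 libraries, with a median of 49.8 CPM (44.3 to 113) against 75.5 CPM (62.7 to 175), a log2 difference of -0.49 ± 0.05 (SE, edgeR adjusted p = 2.31e-06). Cish was lower in 7 of 8 libraries, the exception being onset, with a median of 17.7 CPM (9.23 to 31.1) against 26.7 CPM (12.7 to 33.1). Its log2 difference was -0.43 ± 0.10 (SE, edgeR adjusted p = 0.00257). CD8-gated cells were the deeper ones, and after every cell was thinned to 2000 UMIs the Cish difference was -0.20 with an adjusted p of 0.142. Socs1, the main brake on interferon and gamma-chain signalling, was at a median of 52.0 CPM in CD8-gated and 54.5 CPM in CD4-gated cells (log2 difference -0.08 ± 0.05, SE, edgeR adjusted p = 0.237). After thinning, Socs1 was 0.16 lower on the log2 scale with an adjusted p of 0.0487.

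The 3 STAT genes lie next to each other on chromosome 11 in RefSeq, and all 3 were lower in CD8-gated cells. The step was largest for Stat5b, at 49.6 to 58.6 CPM in CD8-gated and 69.0 to 90.2 CPM in CD4-gated cells, 2 ranges that did not overlap (log2 difference -0.53 ± 0.03, SE, edgeR adjusted p = 3.22e-09). Stat5a (-0.16 ± 0.04, adjusted p = 0.00935) and Stat3 (-0.13 ± 0.03, adjusted p = 0.00266) differed less and their ranges overlapped. Stat5a and Stat5b are close paralogs, and how their shared sequence affected the count of either was not tested. The call for Stat5a was lost after thinning, without the day 4 libraries (-0.09, adjusted p = 0.102) and within the 4 Y-positive libraries, and those for Cish and Stat3 were lost within the 4 Xist-positive libraries.

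Other genes of the pathway showed no single direction between the gates. Of 18 receptor chains 10 were higher and 5 lower in CD8-gated cells, with a median of 0.23 on the log2 scale. Genes known as STAT3 targets were lower (5 of 6 tested, none higher), while 3 of 11 STAT5 targets were higher and 5 lower. Among all genes of these lists the highest differences were Gzmb, encoding granzyme B (4.08), Ifng, encoding interferon-gamma (2.38), and the receptor chain gene Il2rb (1.53). The lowest were Il21 (-2.79), the transcription factor gene Maf (-2.67) and the costimulatory receptor gene Tnfrsf4 (-2.29).

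**Figure D2:**
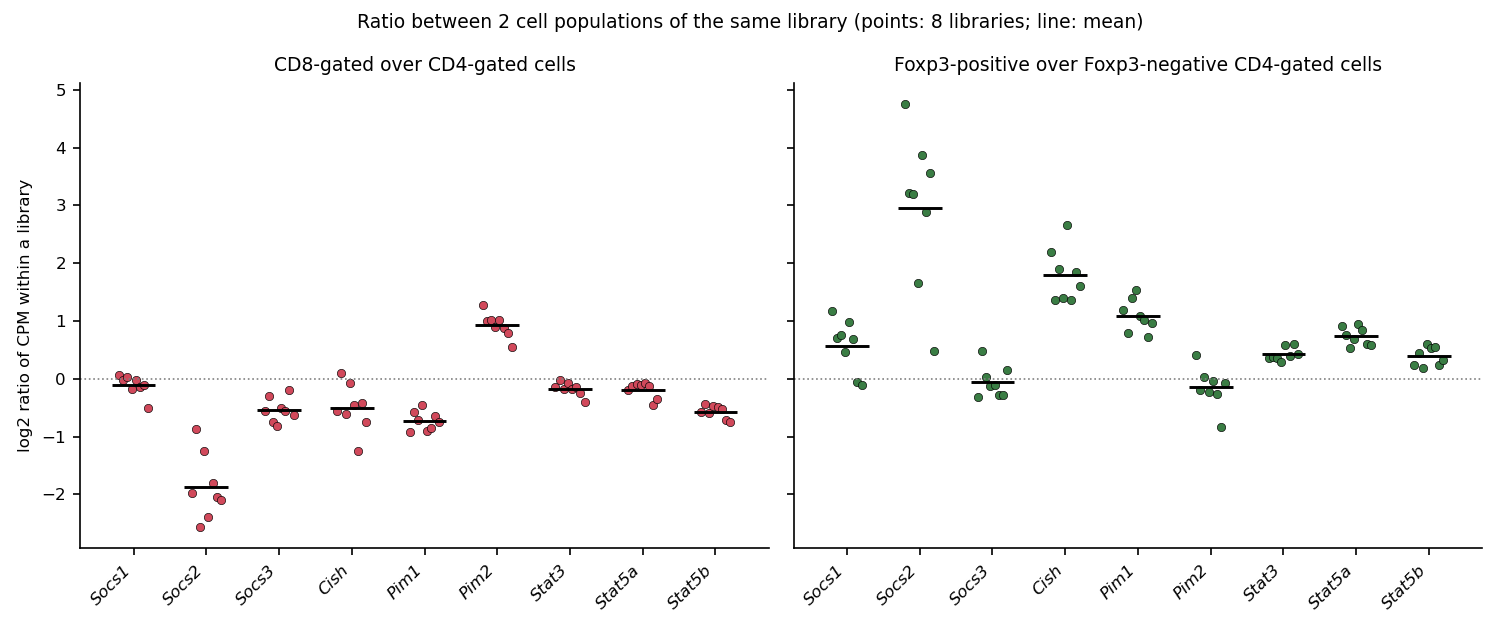
Log2 ratio of CPM between a pair of populations of the same library (y axis) for each gene (x axis); points are the 8 libraries and lines their means. Pim2 lies above 0 in 8 of 8 libraries for CD8-gated over CD4-gated cells, and Socs2, Cish and Pim1 lie above 0 in 8 of 8 libraries for Foxp3-positive over Foxp3-negative CD4-gated cells.

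Foxp3-positive T cells, the gate for regulatory T cells, had higher levels of 7 of the 9 genes. Compared with CD4-gated cells without a Foxp3 UMI in the same library, edgeR called Socs1, Socs2, Cish, Pim1, Stat3, Stat5a and Stat5b higher and Socs3 and Pim2 lower. This comparison called 38.4% of the 10638 genes tested, 19.1% higher and 19.3% lower. The median log2 difference of the 9 genes was 0.38, and that of all genes was -0.01. Without the composition correction 4332 genes were higher and 830 lower in place of 2027 and 2053. The Foxp3-negative cells were not free of regulatory T cells: 5 regulatory T-cell markers summed to 120 to 348 CPM in them, against 1701 to 2404 CPM in Foxp3-positive cells, and cells whose Foxp3 RNA was missed cannot be separated. The Foxp3-positive cells in turn were taken from all T cells: 99 to 207 per library lay in the CD4 gate and 17 to 51 in the CD8 gate. The rest, in every library more than lay in the CD8 gate, were in neither gate. Cd8a and Cd8b1 summed to 89.7 to 210 CPM in the Foxp3-positive cells, against 0 by the gate in the CD4-gated cells. With Foxp3-positive cells of the CD4 gate alone, all 9 genes kept their direction and 8 their call, Stat5b being the exception (0.16, edgeR adjusted p = 0.117), and Pim2 moved from -0.30 to -0.52. With those outside the CD4 gate 7 kept their call and Socs3 and Pim2 did not (edgeR adjusted p = 0.215 and 0.605). These fits called 30% and 28.3% of all genes tested. In bulk sums, fewer cells of a type and less RNA per cell cannot be told apart.

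Socs2 had the widest gap. In Foxp3-positive cells it stood at 55.8 CPM in active, 39.7 at onset, 60.9, 37.2 and 51.2 with vehicle and 43.2, 35.6 and 16.2 with PPCA on days 2, 3 and 4, from 20 to 91 UMIs per library. In Foxp3-negative CD4-gated cells it stood at 2.07, 4.29, 6.63, 2.55, 4.33, 13.8, 4.80 and 11.5 CPM in the same order. The groups did not overlap, the nearest pair being 16.2 CPM (PPCA day 4, Foxp3-positive) and 13.8 CPM (PPCA day 2, Foxp3-negative). The mean was 42.5 ± 14.0 CPM against 6.25 ± 4.24 CPM (SD, n = 8), and edgeR gave a log2 difference of 2.73 ± 0.24 (SE, adjusted p = 5.62e-11).

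Cish, the feedback gene most closely tied to STAT5, followed. Its Foxp3-positive levels were 94.9 and 71.3 CPM in active and onset, 70.8, 65.2 and 92.1 with vehicle and 75.0, 62.9 and 92.1 with PPCA on days 2, 3 and 4. Foxp3-negative CD4-gated cells gave 20.7, 27.6, 19.0, 10.3, 25.7, 28.6, 24.4 and 30.2 CPM. Again the groups did not overlap, and the log2 difference was 1.59 ± 0.10 (SE, n = 8, edgeR adjusted p = 1.67e-14).

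Foxp3-positive cells made up 2.19 to 6.57% of CD4-gated cells and 2.30 to 7.41% of their UMIs. They nonetheless gave a median of 26.2% of all Socs2 UMIs in the CD4 gate (lowest 5.52% in PPCA day 4, highest 54.3% in active). For Cish the share was 13.4% (6.52 to 23.2%) and for Pim1 7.82% (3.90 to 18.3%), while for Socs3 and Pim2 the median was 3.78% each.

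Pim1 was higher in Foxp3-positive cells of 8 of 8 libraries, at 309 and 317 CPM in active and onset and 282 to 425 CPM on days 2 and 3, against 98.2 to 183 CPM in Foxp3-negative CD4-gated cells of these 6 libraries. On day 4 the levels were 754 and 983 CPM against 456 and 504 CPM (log2 difference over all libraries 0.88 ± 0.06, SE, edgeR adjusted p = 1.23e-13). Stat5a (50.9 ± 6.47 against 30.8 ± 5.61 CPM, SD, n = 8), Stat3 (126 ± 8.20 against 94.5 ± 10.2 CPM) and Stat5b (105 ± 7.40 against 79.9 ± 7.01 CPM) were higher in every library without overlap of the groups. Their edgeR log2 differences were 0.55, 0.24 and 0.21. Socs1 was higher in 6 of 8 libraries, the exceptions being the 2 of day 4, with a log2 difference of 0.38 ± 0.09 (SE, edgeR adjusted p = 0.00138).

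Socs3 and Pim2 differed little. Their edgeR log2 differences of -0.22 ± 0.07 (adjusted p = 0.00885) and -0.30 ± 0.12 (adjusted p = 0.0425) depended on the scaling: without the composition correction the median of all genes moved from -0.01 to 0.18, Socs3 to -0.03 (adjusted p = 0.764) and Pim2 to -0.11 (adjusted p = 0.476). In CPM, Socs3 was higher in Foxp3-positive cells of 3 libraries of 8 and Pim2 of 2. The Pim2 values rest on 10 to 35 UMIs per library, and its call was kept in 2 of the 8 fits that each left out a library and lost without the day 4 libraries (adjusted p = 0.155).

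Among the other pathway genes, 11 of 17 receptor chains were higher in Foxp3-positive cells and 4 lower. Il2ra, the high-affinity interleukin-2 receptor chain (4.77), and Tnfrsf4 (3.41) had the highest log2 differences after Foxp3, on which the gate was set. Il21 (-3.28), Il7r (-1.27), encoding the interleukin-7 receptor, and the heat shock gene Hspa1b (-1.10) had the lowest. Of 10 STAT5 targets other than Foxp3, 6 were higher and 2 lower, and of 6 STAT3 targets 4 were higher and 1 lower. B-cell markers summed to 3.23 to 12.0 CPM in Foxp3-positive and 1.57 to 2.53 CPM in Foxp3-negative CD4-gated cells. Early response genes moved both ways (2 of 9 called higher and 3 lower), as did the stress list (1 of 5 higher and 2 lower). Of 6 T-cell markers 3 were called lower, as was the 1 stroma marker tested (-0.51). The part of these lists in the result was not tested.

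The PPCA comparison was made within each harvest day, on which each arm had 1 library. No gene of the 9 passed the threshold in any population, although 3 had an unadjusted edgeR p under 0.05 in CD4-gated cells, 3 in CD8-gated cells and 2 in Foxp3-positive cells. Over all genes edgeR called 0% of 11599 in CD4-gated cells, 0% in CD8-gated cells and 0.0711% in Foxp3-positive cells. At an unadjusted edgeR p under 0.05 the counts over all genes were 777, 923 and 537, and DESeq2 called 30, 40 and 6 after adjustment. DESeq2 called 1 of the 9, Socs1 in CD4-gated cells, and limma-voom called none. The values below therefore describe these 6 libraries.

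In CD4-gated cells the SOCS genes and Cish leaned upward on every day. Regulatory T-cell markers leaned the same way (5 of 5 positive, median 0.38, none at an unadjusted p under 0.05), and the share of Foxp3-positive cells in the gate was 6.57% against 4.93% on day 2, 4.64% against 5.22% on day 3 and 3.77% against 2.19% on day 4, PPCA first. Exocrine pancreas genes were positive too (5 of 5, 2 at an unadjusted p under 0.05, median 0.52), and the part of either list was not tested. Socs1 was at 49.0, 34.0 and 57.7 CPM with vehicle and 67.5, 51.4 and 100 CPM with PPCA on days 2, 3 and 4 (log2 difference 0.54 ± 0.10, SE, n = 3 against 3, edgeR adjusted p = 0.466, DESeq2 adjusted p = 0.0409). PPCA was above vehicle on 3 of 3 days, but the arms overlapped across days. Cish was at 21.4, 12.7 and 26.9 CPM with vehicle and 31.3, 26.5 and 33.1 CPM with PPCA (0.55 ± 0.14, edgeR adjusted p = 0.642). Socs3 was at 77.8, 69.3 and 73.2 CPM with vehicle and 84.0, 83.5 and 175 CPM with PPCA. Here the arms did not overlap, yet most of the difference (0.47 ± 0.22, edgeR adjusted p = 0.752) came from the PPCA day 4 library, and without the day 4 pair it was 0.09.

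Leaving out the day 4 pair moved other values too. Cish in CD4-gated cells rose to 0.70 with an edgeR adjusted p of 0.0275, and Pim1 was lower with PPCA, by -0.55 in CD4-gated cells (adjusted p = 0.0187) and by -0.42 in CD8-gated cells (adjusted p = 0.0379). That fit called 1.29% of 11670 genes in CD4-gated and 2.03% of 11533 in CD8-gated cells, more than any other alternative run. On days 2 and 3 Pim1 was lower with PPCA in all 3 populations, at 111 against 174 CPM and 145 against 173 CPM in CD4-gated cells. On day 4 it was higher in all 3, at 523 against 463 CPM in CD4-gated cells. The early response list, which holds no member, moved with it: in CD4-gated cells it summed to 1100 against 2536 CPM on day 2, 2230 against 2533 CPM on day 3 and 7649 against 4449 CPM on day 4, PPCA first. Its part in the result was not tested.

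In CD8-gated cells Socs2 was at 1.69, 0.803 and 1.41 CPM with vehicle and 6.17, 1.55 and 2.76 CPM with PPCA, higher on 3 of 3 days (1.19 ± 0.31, SE, edgeR adjusted p = 0.504). The call appears in a fit that adds the Y-linked split (1.20, adjusted p = 0.0483). Socs1 (0.29) leaned upward and Pim2 (-0.28) downward, each on 3 of 3 days and with adjusted p-values of 0.572 and 0.584. Whether the PPCA difference itself differed between CD8-gated and CD4-gated cells was tested as an interaction. None of the 9 genes passed with edgeR, DESeq2 or limma-voom, 2 had an unadjusted edgeR p under 0.05, and 0.0164% of 12170 genes were called. Socs1 came nearest, with a PPCA difference 0.27 lower in CD8-gated cells (unadjusted p = 0.0019, adjusted p = 0.609).

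**Figure D3:**
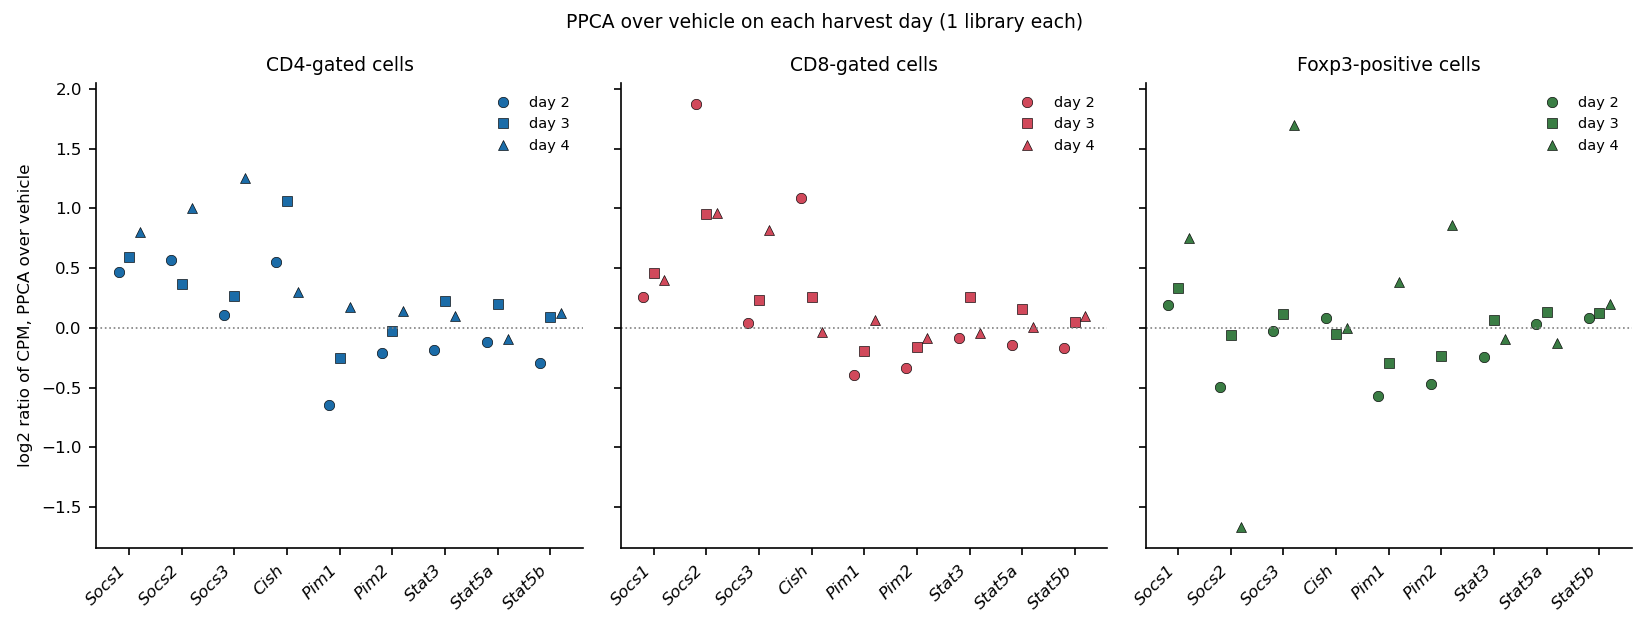
Log2 ratio of CPM, PPCA over vehicle (y axis), for each gene (x axis) on harvest days 2 (circles), 3 (squares) and 4 (triangles), 1 library of each arm per day, in 3 populations. Socs1 lies above 0 on 3 of 3 days in all 3 populations, while Socs2 lies above 0 in CD4-gated and CD8-gated cells and below 0 in Foxp3-positive cells.

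In the summed Foxp3-positive cells Socs2 went the other way from CD4-gated and CD8-gated cells. With PPCA its Foxp3-positive level was lower on 3 of 3 days, at 43.2 against 60.9 CPM on day 2, 35.6 against 37.2 CPM on day 3 and 16.2 against 51.2 CPM on day 4. The day 3 step was well inside counting error, and the day 4 step rests on 20 against 64 UMIs. In Foxp3-negative CD4-gated cells Socs2 was higher with PPCA on 3 of 3 days, at 13.8 against 6.63, 4.80 against 2.55 and 11.5 against 4.33 CPM, although the arms overlapped across days. The difference between the populations was tested as an interaction added after the values were seen. Its log2 value was -1.78 ± 0.28 (SE, edgeR adjusted p = 0.00307), the only call among the 9 genes in a test that called 0.122% of 11495 genes. It lay between -2.12 and -1.26 when each day was left out in turn and was called each time. With DESeq2 it was -1.81 with an adjusted p of 0.123. The Foxp3-positive cells within and outside the CD4 gate were also read apart, alternatives chosen after seeing the data. Within the CD4 gate Socs2 was at 74.9, 35.1 and 70.8 CPM with vehicle and 27.1, 19.6 and 16.7 CPM with PPCA on days 2, 3 and 4, from 8 to 58 UMIs, and the arms did not overlap. The PPCA difference there was -1.47 (edgeR adjusted p = 0.0159, in a fit that called 0.323% of genes) and the interaction -2.58 (edgeR adjusted p = 7.62e-07, 0.27% of genes called). Outside the CD4 gate lay 124 to 277 Foxp3-positive cells per library in these 6 libraries, most of them in neither gate. Socs2 was there at 40.8, 39.0 and 35.1 CPM with vehicle and 58.8, 47.5 and 15.8 CPM with PPCA, from 12 to 63 UMIs. It was higher with PPCA on days 2 and 3 and lower on day 4. The PPCA difference there was 0.00 (edgeR adjusted p = 0.999, 0.198% of genes called) and the interaction -1.06 (edgeR adjusted p = 0.534, 0.115% of genes called). On days 2 and 3 a lower Socs2 level with PPCA was thus seen within the CD4 gate and not outside it. Outside the gate the Poisson intervals of vehicle and PPCA overlapped on both days. They were 25.6 to 61.8 against 45.2 to 75.2 CPM on day 2, vehicle first. On day 3 they were 28.5 to 52.0 against 33.3 to 65.8 CPM. The difference between the 2 sets of Foxp3-positive cells was not tested.

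Markers of several kinds moved along with this result, regulatory T-cell markers first. In Foxp3-negative CD4-gated cells they summed to 155, 152 and 165 CPM with vehicle and 235, 155 and 348 CPM with PPCA on days 2, 3 and 4, with Foxp3 itself at 0 by the gate. In Foxp3-positive cells they summed to 1922, 2029 and 1926 CPM with vehicle and 2055, 2028 and 2404 CPM with PPCA. The lowest genes of the pathway lists in the same interaction were Il10 (-2.72), Il2ra (-1.08), itself a regulatory T-cell marker, and Maf (-0.57), and no list gene was called higher. Cd8a and Cd8b1 were both higher with PPCA in Foxp3-positive cells at an unadjusted edgeR p under 0.05 (median 0.55), summing to 91.4, 145 and 89.7 CPM with vehicle and 168, 210 and 115 CPM with PPCA. In the interaction 9 of 10 early response genes were positive, 6 genes of the list being at an unadjusted p under 0.05 (median 0.27), and 4 of 5 exocrine pancreas genes had such a p (median -1.45), with none of either list called. Of 5 regulatory T-cell markers 1 was positive, 3 had such a p and 2 were called lower (median -0.42). Within the CD4 gate, where the CD8 genes are at 0, the Socs2 difference was the one given above, and the part of the markers was otherwise not tested. Cish pointed the same way (-0.62 ± 0.17, edgeR adjusted p = 0.310) but ran from -0.82 to -0.33 when each day was left out in turn. It was called without the day 2 pair, not without the day 3 or day 4 pair, and it was called with the Foxp3-positive cells outside the CD4 gate (-0.80, edgeR adjusted p = 0.0350).

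Harvest day called more genes than treatment did. Day 4 against the mean of days 2 and 3, fitted together with treatment, called 4 of the 9 genes in CD4-gated cells (Pim1, Socs1, Stat5a and Cish), 3 in CD8-gated cells (Pim1, Socs3 and Socs1) and Pim1 alone in Foxp3-positive cells, all higher on day 4. Over all genes 13.5% were called in CD4-gated cells (8.32% higher and 5.14% lower), 16.2% in CD8-gated cells (9.10% higher and 7.08% lower) and 5.08% in Foxp3-positive cells (3.97% higher and 1.10% lower). Early response genes rose with the same libraries (6 of 10 called in CD4-gated, 8 of 10 in CD8-gated and 7 of 8 in Foxp3-positive cells, none lower). A list of 5 stress genes was also higher in each population, which is no support, since it was chosen from these data for leading the day 4 clusters. In CD4-gated cells regulatory T-cell markers moved both ways (Ctla4 called higher at 1.99 and Foxp3 lower at -0.95, median of 5 genes -0.56), and the share of Foxp3-positive cells in the gate was 2.19 and 3.77% on day 4 against 4.64 to 6.57% on days 2 and 3. In CD8-gated cells the B-cell gene Cd79b (-0.53) and Cd8a (-0.47) were called lower and 1 of 5 regulatory T-cell markers was called higher. In Foxp3-positive cells 1 of these 5 was called higher too. Trdc (-1.68) and the 1 stroma marker tested (-0.36) had an unadjusted edgeR p under 0.05 there without a call. The part of these lists in the result was not tested, and day 4, its dose number and its pair of libraries cannot be told apart.

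Pim1 had the clearest step. In CD4-gated cells it was at 174 and 173 CPM with vehicle on days 2 and 3 and at 463 CPM on day 4, and at 111 and 145 CPM with PPCA and then 523 CPM. CD8-gated cells went from 106 and 92.7 CPM to 297 CPM with vehicle and from 81.1 and 80.8 CPM to 312 CPM with PPCA. Foxp3-positive cells went from 425 and 345 CPM to 754 CPM with vehicle and from 286 and 282 CPM to 983 CPM with PPCA. Day 4 did not overlap with days 2 and 3 in any population. The edgeR log2 differences were 1.90 ± 0.16 (adjusted p = 9.24e-04), 1.93 ± 0.12 (adjusted p = 2.12e-04) and 1.52 ± 0.17 (adjusted p = 2.56e-04). The untreated libraries, at 142 and 189 CPM in CD4-gated cells, lay near days 2 and 3.

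The SOCS genes moved less. Socs1 was 0.79 ± 0.11 higher on day 4 in CD4-gated cells (edgeR adjusted p = 0.00591) and 0.57 ± 0.09 higher in CD8-gated cells (adjusted p = 0.00729), yet 0.01 ± 0.17 in Foxp3-positive cells (adjusted p = 0.992). Socs3 was 0.96 ± 0.16 higher in CD8-gated cells (adjusted p = 0.00942), from 46.3 to 57.0 CPM on days 2 and 3 to 64.1 and 113 CPM on day 4, without overlap. In CD4-gated and Foxp3-positive cells Socs3 had adjusted p-values of 0.0807 and 0.121, with the PPCA day 4 library alone far above the rest, at 175 and 195 CPM. Cish (0.62 ± 0.14, adjusted p = 0.0327) and Stat5a (0.58 ± 0.10, adjusted p = 0.0110) rose in CD4-gated cells. Without the composition correction the median of all genes shifted to -0.17, -0.18 and -0.13 in CD4-gated, CD8-gated and Foxp3-positive cells, and Cish lost its call (0.46, adjusted p = 0.0959). The calls over all genes then split into 618 higher and 1238 lower in CD4-gated cells in place of 993 and 614. In CD8-gated cells they split into 689 and 1775 in place of 1089 and 847, and in Foxp3-positive cells into 280 and 250 in place of 349 and 97. Leaving out the day 3 pair, Pim1 alone was called in CD4-gated and in CD8-gated cells.

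**Figure D4:**
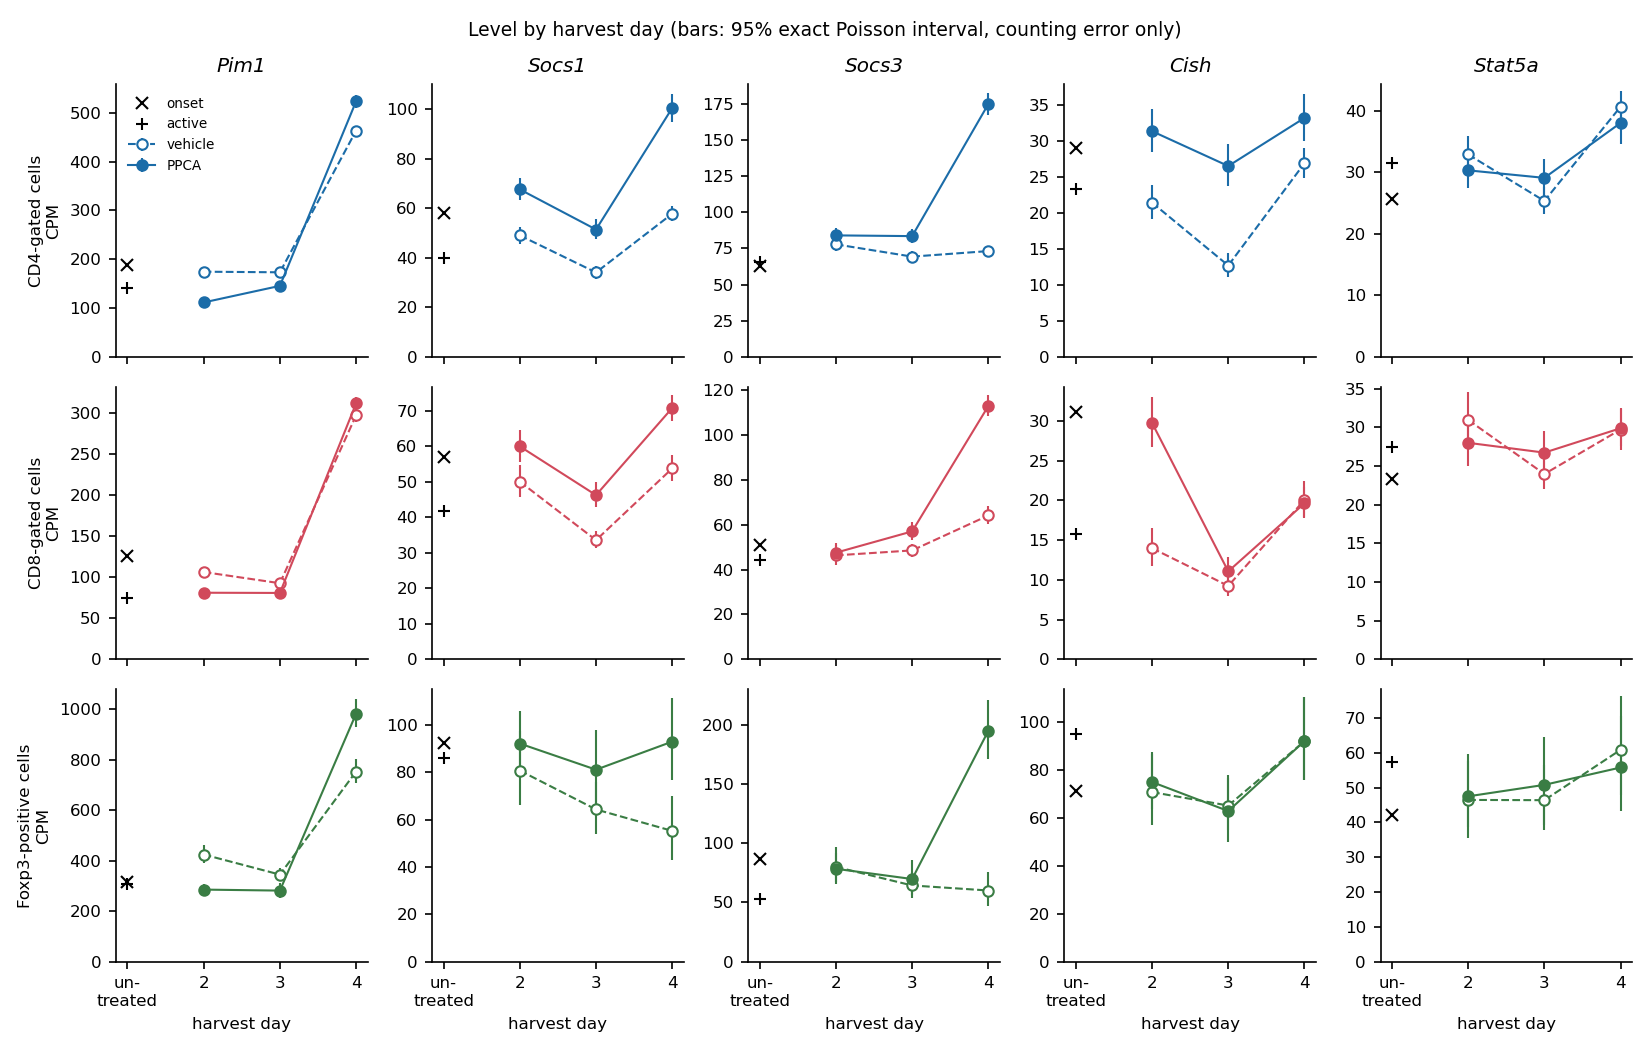
Level (CPM, y axes) of 5 genes by harvest day (x axes) with vehicle (open circles, dashed) and PPCA (filled circles) in 3 populations, with the untreated active and onset libraries at the left; bars are 95% exact Poisson intervals, counting error only. Pim1 is higher on day 4 in every panel, and Socs3 is highest in the PPCA day 4 library.

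Other pathway genes moved both ways on day 4. In CD4-gated cells 1 of 18 receptor chains rose and 3 fell. Of 6 ligand genes tested there, 4 rose and none fell, led by Il17a (7.26 on the log2 scale), while Osm (-1.55), Foxp3 (-0.95) and the interferon-induced Gbp4 (-0.84) were the lowest list genes. The stress-response genes Atf3 (5.35) and Maff (4.64) completed the 3 highest there. In CD8-gated cells Atf3 (5.75), Maff (4.09) and Tnfaip3 (3.60), which restrains NF-kappaB, were highest, and Osm (-1.89) and Il6st (-0.93) were among the lowest. In Foxp3-positive cells Atf3 (4.71), Il10 (4.04) and Maff (3.83) were highest, and Osm (-2.17) and Ccnd2 (-0.92) were among the lowest. Maff and Tnfaip3 belong to the stress list chosen from these data for leading the day 4 clusters, so their place among the highest is no support. Osm and the cell cycle gene Ccnd2 are known STAT5 targets, of which 2 of 11 rose and 2 fell in CD4-gated cells.

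Differences of the day 4 step between populations were tested as interactions, also added after the values were seen. Between CD8-gated and CD4-gated cells none of the 9 genes passed with edgeR, DESeq2 or limma-voom, 6 had an unadjusted edgeR p under 0.05, and 0.57% of 12460 genes were called. Of the list genes called there, Fos (0.94), Fosb (0.80) and Dusp1 (0.49) rose more in CD8-gated cells, the 3 highest outside the cell type markers, and Hif1a (-0.63), Tnfaip3 (-0.35) and Ifngr1 (-0.31) were the lowest. Exocrine pancreas genes differed more than these: 5 of 5 tested were positive in the interaction and 3 were called, Ctrb1 (2.58), Cpa1 (2.54) and Prss2 (2.22). On day 4 they were lower in CD4-gated cells (3 of 5 called, median -1.23) and leaned upward in CD8-gated cells (none called, 4 of 5 at an unadjusted p under 0.05, median 1.25), and their part in the result was not tested. Between Foxp3-positive and Foxp3-negative CD4-gated cells 0.294% of 11902 genes were called (0.0504% higher and 0.244% lower), among them Socs1 (-0.84 ± 0.14, SE, adjusted p = 5.38e-04) and Pim1 (-0.46 ± 0.08, adjusted p = 9.26e-04), both with a smaller step in Foxp3-positive cells. Tnfaip3 (-0.86), Egr1 (-0.64) and Bcl2 (-0.46) were the lowest list genes in the same test, apart from the marker Ctla4 (-0.58). Regulatory T-cell markers were negative in it (5 of 5, 3 at an unadjusted p under 0.05, 1 called, median -0.35), as was the stress list (5 of 5, 4 at an unadjusted p under 0.05, 1 called, median -0.41), and their part in the result was not tested. DESeq2 called neither Socs1 nor Pim1 (adjusted p = 0.756 and 0.608), and without the day 2 pair Pim1 was at -0.23 with an edgeR adjusted p of 0.675. With Foxp3-positive cells of the CD4 gate alone Socs1 was at -0.65 with an edgeR adjusted p of 0.176, while Pim1 kept its call, in a fit that called 0.408% of genes.

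The active and onset libraries, with 1 library each, allow no test. Of the genes at 50 CPM or more in either library, 0.829% of 2774 were at least 2-fold apart in CD4-gated cells, 1.63% in CD8-gated cells and 1.48% in Foxp3-positive cells. Of the 9 genes, 5, 5 and 8 reached that level in the 3 populations, and none of these was 2-fold apart. Below that level, Socs2 in CD8-gated cells was the only value of the 9 genes past 2-fold, at 1.11 CPM in active and 3.00 CPM at onset from 22 and 34 UMIs (log2 ratio -1.44, 95% interval -2.28 to -0.62 for counting error only). Cish in CD8-gated cells was at 15.8 CPM in active and 31.1 CPM at onset (-0.98, interval -1.20 to -0.76), whereas in Foxp3-positive cells it was higher in active (94.9 against 71.3 CPM, 0.41, interval 0.03 to 0.80). Socs3 was lower in active in Foxp3-positive cells, at 52.6 against 86.2 CPM (-0.71, interval -1.16 to -0.28). Pim1 was lower in active in CD8-gated cells (74.5 against 126 CPM, -0.76) and in CD4-gated cells (142 against 189 CPM, -0.41), and level in Foxp3-positive cells (309 against 317 CPM). Socs1 was lower in active in CD4-gated (-0.54) and CD8-gated cells (-0.44). Pim2 was higher in active in both, at 17.1 against 13.3 CPM (0.36) and 41.5 against 26.8 CPM (0.63). Over all such genes the medians were -0.06, -0.12 and -0.03 in the 3 populations. Haemoglobin genes summed to 149 CPM in CD4-gated cells of the active library and to at most 6.52 CPM in those of any other, and their part in these values was not tested.

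Pairs of the 9 genes were then counted within single cells, each thinned to 2000 UMIs, against the number expected if they were detected independently in their library. Of 72 tests (36 pairs in 2 gates), 12 had an exact two-sided sign-flip p under 0.05 over the 8 libraries and none passed adjustment. The 7 pairs above expectation in 8 of 8 libraries had an exact sign-flip p of 0.0078, the smallest that 8 libraries can give, and an adjusted p of 0.0804. Socs2 with Cish in CD4-gated cells stood furthest from expectation, with 71 cells observed and 13.7 expected (mean log2 ratio 2.13 ± 0.47, SD, n = 8, from 1.50 to 2.94). Socs1 with Cish gave 219 against 131 cells (0.72 ± 0.32), Socs2 with Pim1 142 against 87.8 (0.80), Cish with Pim1 483 against 388 (0.40) and Socs1 with Stat3 513 against 459 (0.16).

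In CD8-gated cells Cish with Pim1 (229 against 190 cells, 0.31) and Pim1 with Stat3 (750 against 676, 0.17) were above expectation in 8 of 8 libraries. Since Socs2 and Cish were both high in Foxp3-positive cells, the count was repeated without them. Socs2 with Cish then gave 47 cells against 9.61 expected (1.91) and Socs1 with Cish 185 against 115 (0.63), both still above expectation in 8 of 8 libraries. Socs1 with Stat3 in CD4-gated and Cish with Pim1 in CD8-gated cells fell to 7 of 8, and the remaining pairs stayed at 8. In cells thinned to 3000 UMIs, Socs1 with Stat3 in CD4-gated cells was above expectation in 6 of 8 libraries (0.10). Pim1 with Stat3 in CD8-gated cells was above in 5 (1245 against 1203 cells, 0.04). The remaining pairs stayed at 8, others reached 8, and none passed adjustment. Detected pairs share the cell's state and its droplet, and counts of this size are small.

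**Figure D5:**
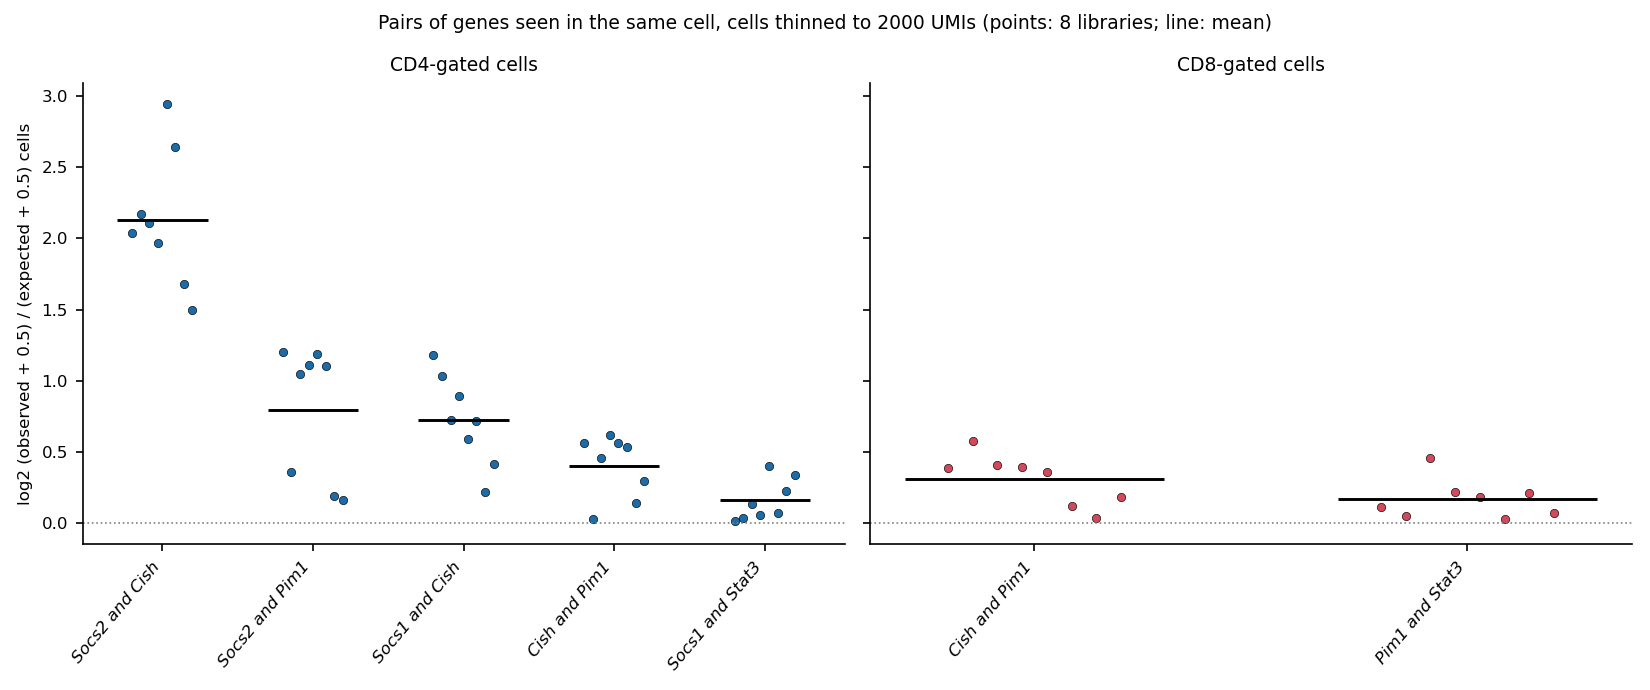
Log2 of observed over expected cells with both genes, with 0.5 added to each (y axis), for the 7 pairs above expectation in 8 of 8 libraries (x axis); points are libraries and lines their means. Socs2 with Cish in CD4-gated cells ranges from 1.50 to 2.94, above every other pair's mean.

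Levels of the 9 genes were also set side by side over 16 points, the 8 libraries in CD4-gated and CD8-gated cells, as log2(CPM + 1) centred on each gate's mean. These points share libraries and the day 4 step, so the correlations are descriptive. Pim1 was most like Tnfaip3 (Pearson r = 0.991) and Klf6 (0.987) among 7273 genes averaging at least 10 CPM. Socs3 was most like Sertad1 (0.955) and Tspyl2 (0.942), Socs1 like Smyd3 (0.957) and Aff4 (0.956), and Cish like Xbp1 (0.936) and Smad2 (0.908). The genes nearest to Stat3 were Clcn3 (0.969) and Fyb (0.953), to Stat5a Ccz1 (0.918) and Ccdc9 (0.916), to Pim2 Ms4a4c (0.885) and Mroh1 (0.885), and to Stat5b Unc45a (0.791) and Pcna (0.770). Socs2 averaged under 10 CPM and was not compared. Between members, Socs1 ran with Cish (0.748) and Socs3 (0.723), and Pim1 ran against Stat3 (-0.684) and Pim2 (-0.627).

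The authors' deposited table of cluster markers lists members in 4 clusters, without stating which cells it was made from. In its CD4 Treg cluster it gives average log2 fold changes of 1.06 for Pim1, 0.69 for Cish, 0.52 for Socs2, 0.33 for Stat5b, 0.31 for Socs1, 0.29 for Stat3 and 0.25 for Stat5a. The share of that cluster's cells with Socs2 is 11.1% and with Cish 24% in the authors' deposited table. Its CD4 Th17 cluster lists Socs3 at 0.77, Pim1 at 0.59 and Cish at 0.26, its CD4 Th0 cluster Pim1 at 0.26 and its CD8 TRM TEM cluster Cish at 0.65, all per the authors' deposited table. A cluster's own markers describe the cluster and test nothing.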

How the data were processed

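The authors deposited, per library, whole-number UMI counts per gene and cell barcode; per the file headers they came from Cell Ranger 6.0.0, while the submitters' processing notes name version 6.1.2. Their genome build is not given in the sources used here. A marker table of clusters that the authors deposited holds p-values, average log2 fold changes and, as a fraction, how many cells had the gene. Cells with at least 500 genes and at most 10% mitochondrial UMIs were kept, cells with the highest Scrublet doublet scores were removed (0.8% per 1000 cells), and T cells were those in which 6 T-cell receptor and CD3 genes summed to 2 UMIs or more and 6 B-cell and myeloid markers to 1 UMI or none. UMIs were summed per library and population and tested over all genes that passed edgeR's expression filter with edgeR 4.0.16 (TMM scaling, quasi-likelihood test, Benjamini-Hochberg adjusted p under 0.05). Libraries were the replicates: comparisons of populations were blocked by library and PPCA against vehicle by harvest day. Deviations of the same-day libraries correlated at 0.330, 0.344 and 0.504 in CD4-gated cells, 0.354, 0.540 and 0.515 in CD8-gated cells and 0.185, 0.194 and 0.391 in Foxp3-positive cells. All were above 0.1, the level at which days were taken to pair the libraries. Different-day pairs reached 0.317, 0.0998 and 0.214 in these populations. In Foxp3-positive cells 0.214 exceeded the same-day values of days 2 and 3, so only day 4 stood out there. CPM intervals are 95% exact Poisson intervals. The SE of an edgeR difference was the size of that difference divided by the square root of its F statistic. It does not give the spread of the library values. DESeq2 1.42.0, limma 3.58.1 and other settings were alternatives. The tests were tested on simulated data in which 200 genes changed 2-fold. They recovered 45 to 98% of these genes with 5 to 24 false calls, depending on the comparison. Recovery was lowest (45%) for the day 4 difference between Foxp3-positive and Foxp3-negative CD4-gated cells. The members and lists were chosen with earlier results of these data known. Named list genes were the 3 highest and 3 lowest called log2 differences of the pathway, target, response and stress lists in each comparison. The stress list, which holds Maff and Tnfaip3, was chosen on these data. Some of these list results are not reported here.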

Additional observations from a re-analysis of the deposited data

Results flagged for a closer look

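Socs2 differed in the direction of its PPCA difference between populations. Averaged over the 3 harvest days, the log2 ratio of PPCA to vehicle was -0.74 in Foxp3-positive cells, 1.13 in Foxp3-negative CD4-gated cells and 1.26 in CD8-gated cells. The Foxp3-positive mean rests largely on day 4, with ratios of -0.50, -0.06 and -1.66 on days 2, 3 and 4, and the edgeR difference there moved from -0.67 to -0.35 without the day 4 pair. The test of the difference between Foxp3-positive and Foxp3-negative CD4-gated cells gave -1.78 (edgeR adjusted p = 0.00307), -2.58 with Foxp3-positive cells of the CD4 gate alone and -1.06 (edgeR adjusted p = 0.534) with those outside it, where Socs2 was higher with PPCA on days 2 and 3, and that against CD8-gated cells was not tested. The step from day 2 and 3 to day 4 also differed between Foxp3-positive and Foxp3-negative CD4-gated cells, by -0.84 for Socs1 and by -0.46 for Pim1 (edgeR adjusted p = 5.38e-04 and 9.26e-04). DESeq2 called none of these 3 differences.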

How the results depend on the processing

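Between CD8-gated and CD4-gated cells 8 genes were called in 16 of 22 alternatives and 3 to 7 in the others. Between Foxp3-positive and Foxp3-negative CD4-gated cells 9 genes were called in 4 of 24 alternatives and 4 to 8 in the others, Pim2 being called in 5, Socs3 in 18 and Stat5b in 20. With no replicate block, 3 instead of 8 genes were called between CD8-gated and CD4-gated cells and 4 instead of 9 between Foxp3-positive and Foxp3-negative CD4-gated cells; the PPCA comparisons had 0 calls with and without the replicate block of harvest day. For PPCA in CD4-gated cells DESeq2 called 1 and no low-count filter 2 in place of 0, and for CD8-gated cells a factor for Y-linked transcripts called 1 in place of 0. Foxp3-positive cells of the CD4 gate alone gave 1 in place of 0 for PPCA. The Y-linked factor gave 6 in place of 4 for day 4 in CD4-gated cells, 5 in place of 3 in CD8-gated cells and 3 in place of 1 in Foxp3-positive cells, where no low-count filter gave 3 and no doublet removal 2. For the difference of the PPCA effect between Foxp3-positive and Foxp3-negative CD4-gated cells DESeq2 gave 0, no low-count filter 2 and the Y-linked factor 2 in place of 1. For the corresponding day 4 difference DESeq2 gave 0, gates read on thinned cells 1 and Foxp3-positive cells of the CD4 gate alone 1 in place of 2, and between CD8-gated and CD4-gated cells thinning to 2000 UMIs gave 1 in place of 0. The cause of these changes was not tested. Active against onset, 2 genes instead of 1 were past 2-fold at any level with a gate of at least 2 UMIs, and Pim2 in Foxp3-positive cells reversed from 0.92 to -0.28 after thinning.

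Leaving out 1 harvest day gave 0 to 2 calls for PPCA in CD4-gated and 0 to 1 in CD8-gated cells, 1 to 4 for day 4 in CD4-gated and 1 to 4 in CD8-gated cells, 0 to 1 for both differences between CD8-gated and CD4-gated cells, and 1 to 2 for both differences between Foxp3-positive and Foxp3-negative CD4-gated cells. Over all genes the lowest and highest counts among the alternatives were 2015 and 5861 against 5341 for CD8-gated and CD4-gated cells, and 2149 and 5162 against 4080 for Foxp3. For PPCA, where leaving out day 4 gave the highest counts in CD4-gated and CD8-gated cells, they were 0 and 151 against 0 in CD4-gated, 0 and 234 against 0 in CD8-gated and 0 and 91 against 6 in Foxp3-positive cells. For day 4 they were 444 and 2429 against 1607, 219 and 3411 against 1936, and 175 and 777 against 446. For the differences between CD8-gated and CD4-gated cells they were 1 and 110 against 2 for PPCA and 18 and 211 against 71 for day 4. For those between Foxp3-positive and Foxp3-negative cells they were 3 and 61 against 14 and 4 and 66 against 35.

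Each arm had 1 library per day, Foxp3-positive sums held 10 to 35 Pim2 and 20 to 91 Socs2 UMIs, and counting error alone limits ratios at that depth. With 8 libraries the sign-flip p for co-detection cannot go below 0.0078, and without day 4 not below 0.0312, so the absence of adjusted calls there says nothing about stability.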
